A study of Homo sapiens with 4 samples.

Results

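The genes described here encode HSP90, the co-chaperones that steer its cycle and the J proteins that deliver substrates to HSP70, 10 genes in all: HSP90AA1, HSP90AB1, STIP1, AHSA1, PTGES3, CDC37, FKBP4, DNAJA1, DNAJB1 and DNAJB6. They were found by gene name, and 7 of them have a row in each of the 4 tables, among 9265 genes listed in any table. HSP90AB1, DNAJA1 and STIP1 have no row in any table, and their read values are not analysed here.

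HSP90 is an abundant cytosolic chaperone that acts late in folding, on kinases, steroid hormone receptors and other clients. It works as a dimer that closes when it binds ATP, and its co-chaperones load clients, speed or slow ATP hydrolysis, or hold the closed state. J proteins act earlier: they bind unfolded chains and stimulate the ATPase of HSP70, from which clients pass to HSP90. Several of these genes are targets of HSF1, the transcription factor of the heat shock response.

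The libraries hold ribosome protected fragments (RPFs), the pieces of mRNA that ribosomes shield from nuclease, from HEK293T, a line of human embryonic kidney origin in which the SV40 large T antigen is expressed. Untreated cells gave 2 libraries, A and B, and cells kept for 24 hr in 500 µg/mL G418 gave another 2. G418, an aminoglycoside, occupies the ribosomal decoding center and lets near-cognate tRNAs be accepted, also at stop codons. The cells were grown in serum-supplemented medium, and no antibiotic other than the aminoglycoside was added. The study's methods call A and B biological replicates, the labels do not say how the cultures were kept apart, and p-values measure the spread between these libraries. RPFs follow both the amount of an mRNA and how much it is translated, and no mRNA measurement is used here, so the 2 cannot be told apart, nor can fewer cells be told from less RNA per cell.

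The listed mRNAs hold 2440204 to 6082600 RPFs per library, and the shallowest library is untreated B. Of 7 genes that HEK293T cells are known to express, 6 to 7 were listed per library, with summed CDS densities of 775 to 785 RPKM in untreated and 654 to 686 RPKM in G418-treated cells, mostly VIM, which was itself lower with G418 (log2 fold change -0.32, adjusted p = 0.00902, edgeR). Of 10 defining genes of other cell types, 8 had no row, and the listed ones summed to 4.44 to 6.90 RPKM untreated and 3.59 to 3.94 RPKM with G418, mostly COL1A1. The part of these markers in the results was not tested. An exact two-sided permutation test of 2 libraries against 2 cannot go below p = 0.333, so single values are given with their spread, and tests come from fits over all transcripts.

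A ribosome that reads through the normal termination codon (NTC) goes on until the next stop codon of the same frame in the 3′UTR, here called the first in-frame 3′TC, and the stretch from one to the other is called the extension. The sequences below show each NTC and the base after it, the +4 base, because both are known to affect how well a stop codon is read. They are the mRNA strand, 5′ to 3′, from GENCODE version 44 on hg38, with the stop codon and the +4 base in capitals. Every NTC lies in the last exon. For the 7 listed genes the CDS length, the 4 nt stop codon, the first in-frame 3′TC and the number of in-frame 3′TCs equalled the deposited values.
HSP90AA1, chr14:102081700-102081729, minus strand: auggaagaaguagacUAAUcucuggcugag
AHSA1, chr14:77469232-77469261, plus strand: ggcgcacgcuuauuuUAGGgccagcggcag
PTGES3, chr12:56664467-56664496, minus strand: augccagaucuggagUAAGgaauauuguca
CDC37, chr19:10391539-10391568, minus strand: aaggaugucagugugUGACcugccccagcu
FKBP4, chr12:2803241-2803270, plus strand: guggagacagaagcaUAGCcccucuccacc
DNAJB1, chr19:14515928-14515957, minus strand: cagguucuuccaauaUAGCuaucugagcuc
DNAJB6, chr7:157416081-157416110, plus strand: accaaaggcaaucacUAGAccggacuugag

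The same window is shown for the 3 genes without a row, because their in-frame 3′TC follows closely.
HSP90AB1, chr6:44253581-44253610, plus strand: auggaagaagucgauUAGGuuaggaguuca
DNAJA1, chr9:33038886-33038915, plus strand: cagugucagaccucuUAAUgggccagugaa
STIP1, chr11:64204109-64204138, plus strand: cugauugcaauucggUGAUgacuuguucau

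UAG ends 4 of the 7 listed genes, AHSA1, FKBP4, DNAJB1 and DNAJB6. UAA ends HSP90AA1 and PTGES3, and UGA ends CDC37 alone. Of 6509 transcripts that passed the read minimum in both conditions, 21.7% end in UAG, 28.5% in UAA and 49.8% in UGA. STIP1 has a UGA directly after its own UGA, with 0 codons between. HSP90AB1 and DNAJA1 have an extension of 4 codons, and HSP90AA1, the closest of the listed genes, has 5. The study's methods discard transcripts with fewer than 5 such codons from readthrough scores. Whether that step is why the 3 genes have no row was not tested.

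The authors left out the first 6 nt of the extension and counted the rest with the 3′TC included, a length that differs widely between these genes. It is 12 nt for HSP90AA1, 18 nt for DNAJB1, 21 nt for PTGES3, 60 nt for CDC37, 84 nt for FKBP4 and 363 nt for DNAJB6. AHSA1 has 0 in-frame 3′TCs, so the 211 nt counted cover its 3′UTR of 223 nt without the ends. This holds for 4.52% of the 6509 transcripts, and stretches of 21 nt or less, as in HSP90AA1, DNAJB1 and PTGES3, for 14.5%.

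CDS density, in RPKM (reads scaled to the length of the CDS and to the mapped reads of the library, so that genes of different length can be compared), differed between conditions by less than the test could call for each of the 7 genes. HSP90AA1, the stress-inducible cytosolic HSP90, had the highest level of the group. Its CDS density was 1531 and 1187 RPKM in untreated A and B, and 1365 and 1183 RPKM in G418 A and B, so the 2 conditions overlap. PTGES3, or p23, which binds closed HSP90 and slows its ATP hydrolysis, followed with 1141 and 899 RPKM untreated and 1030 and 917 RPKM with G418. For both genes untreated A was the highest library.

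FKBP4, or FKBP52, a prolyl isomerase that accompanies steroid hormone receptors bound to HSP90, stood at 322 and 292 RPKM in untreated cells and 335 and 307 RPKM with G418. AHSA1, which stimulates the ATPase of HSP90, stood at 251 and 214 RPKM untreated and 274 and 238 RPKM with G418. CDC37, the co-chaperone that recruits kinases, varied least, at 206 and 207 RPKM untreated and 217 and 214 RPKM with G418. Of these 3 genes, CDC37 is the only one whose conditions do not overlap. RPKM is scaled by the mapped reads of each library, and by mean RPKM CDC37 had a log2 ratio of 0.06. In edgeR CDC37 had -0.01 with TMM scaling and 0.095 with totals of CDS reads in its place. With those totals the median of all transcripts was 0.11 higher with G418 on the log2 scale.

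DNAJB1, or HSP40, the class B J protein best known as a heat shock protein, was measured at 89.9 and 89.3 RPKM untreated and 98.8 and 88.8 RPKM with G418. DNAJB6, a class B J protein known to keep polyglutamine proteins from aggregating, was the lowest, at 77.0 and 70.5 RPKM untreated and 87.4 and 76.7 RPKM with G418. The order of the 7 genes was the same in both conditions, and within a condition no library of a gene overlapped those of its neighbour in the order. The co-chaperones all lay above the J proteins. In untreated cells the means were 1359 ± 243 RPKM for HSP90AA1, 1020 ± 172 for PTGES3, 307 ± 20.9 for FKBP4, 233 ± 26.6 for AHSA1, 207 ± 0.455 for CDC37, 89.6 ± 0.408 for DNAJB1 and 73.8 ± 4.59 for DNAJB6 (SD, n = 2). HSP90AA1 exceeded 99.1% of the transcripts listed in all 4 tables in untreated cells and DNAJB6, the lowest of the group, 81.9%.

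**Figure D1:**
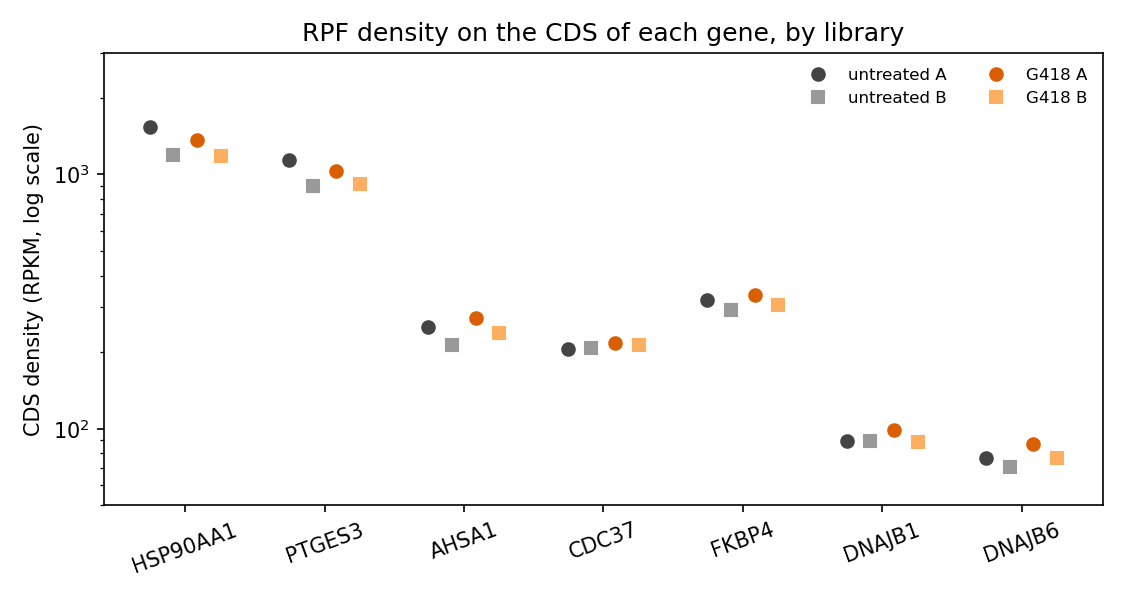
CDS density in RPKM (log axis) of the 7 genes in untreated A and B (dark and light grey) and G418 A and B (dark and light orange), with 1 point per library. The points of each gene lie close together, from 1183 to 1531 RPKM for HSP90AA1 and from 70.5 to 87.4 RPKM for DNAJB6, and the order of the genes is the same in both conditions.

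edgeR's quasi-likelihood test on the deposited CDS counts called 0 of the 7 genes at an adjusted p of 0.05 (Benjamini-Hochberg), where 8.52% of 8494 transcripts were called in either direction. DESeq2 also called 0, against 3.90% of 6408 transcripts. By edgeR 1 gene, HSP90AA1, had an unadjusted p under 0.05. HSP90AA1 had a log2 fold change of -0.16 (SE 0.08, unadjusted p = 0.0483, adjusted p = 0.215, edgeR). PTGES3 had -0.14 (SE 0.09, adjusted p = 0.337, edgeR). The other 5 lay between -0.01 for FKBP4 and 0.08 for DNAJB6, with adjusted p from 0.707 to 0.989 (edgeR). The median of the 7 was -0.01 beside 0.00 over all transcripts tested.

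The intervals of 2 SE bound what was measured. They ran from -0.32 to just below 0 for HSP90AA1 and from -0.31 to 0.03 for PTGES3. For DNAJB1 the interval ran from -0.21 to 0.20, and for DNAJB6 from -0.13 to 0.29. Without untreated B, the shallowest library, HSP90AA1 had -0.28 (adjusted p = 3.8e-08, edgeR) and PTGES3 -0.25 (adjusted p = 3.9e-05, edgeR), which gives 2 called genes of 7, where 24.4% of 8531 transcripts were called in that fit. Scaling by library totals in place of TMM moved the median of all transcripts to 0.11 and the values of DNAJB1, CDC37 and FKBP4 with it, to 0.10, 0.095 and 0.093.

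Part of these coding sequences is shared with other places in the genome, where a read can be placed instead. Of all 30 nt windows in the CDS, 77.6% also occur elsewhere on hg38 for PTGES3, 60.9% for DNAJB6, 59.6% for HSP90AA1, 22.7% for FKBP4, 18.7% for DNAJB1, 8.78% for CDC37 and 0% for AHSA1. The authors kept a single alignment for each read that maps to several places, so the levels of PTGES3, DNAJB6 and HSP90AA1 are uncertain. The effect on their densities was not tested.

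Past the stop codon, pooled over libraries, all 7 genes held more RPFs in their extension with G418, and edgeR called 5 of them higher, against 82.6% of 2827 transcripts tested. The ribosome readthrough score (RRTS) is the density of reads in the extension divided by the density in the CDS of the same gene, so that a score of 1 would mean equal densities. Intervals given for RRTS are exact Poisson intervals at 95% and cover counting error only. For a library with 0 reads the text gives the score that 3 reads would have, and the bars of the plot end at the exact limit, which is higher.

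AHSA1 gave the clearest response. It held 2 and 0 reads past the NTC in untreated A and B and 87 and 56 in G418 A and B. RRTS was 0.00422 and 0 in untreated cells and 0.180 and 0.145 with G418, and the 2 conditions do not overlap. With 0 reads in untreated B, an RRTS of up to 0.0171 (3 reads) is allowed there. Pooled over libraries, the score was 53.4 times higher with G418 (95% exact interval 14.5 to 445).

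CDC37 held 1 and 0 reads in untreated cells and 20 and 17 with G418. Its RRTS rose from 0.00904 and 0 to 0.183 and 0.173, and the G418 libraries differ by less than their counting error. The ratio was 28.3 (95% exact interval 4.77 to 1148), a wide range because 1 untreated read carries it.

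FKBP4 held 1 and 0 reads in untreated cells and 21 and 25 with G418. RRTS rose from 0.00414 and 0 to 0.0890 and 0.126, a ratio of 35.8 (95% exact interval 6.11 to 1443). DNAJB6 held 0 reads in both untreated libraries, which allows an RRTS of up to 0.0120 in A and 0.0301 in B, and 14 and 19 reads with G418. Its RRTS with G418 was 0.0526 and 0.0889. The pooled score of 0.0688 was 8.01 times the score that 3 reads over both untreated libraries would give. This ratio leaves out the counting error of the G418 reads.

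HSP90AA1 differed from these 4 genes in its untreated libraries. It already held 23 and 12 reads in its extension in untreated A and B, an RRTS of 0.140 and 0.217, and 62 and 64 reads with G418, an RRTS of 0.451 and 0.588. The conditions do not overlap, and the ratio was 3.21 (95% exact interval 2.19 to 4.81). Pooled, its untreated RRTS of 0.160 (interval 0.111 to 0.222) exceeded that of 92.5% of the 6509 transcripts. The other genes here with short counted stretches also ranked high untreated, while 66.9% of the 942 transcripts with such stretches scored 0. DNAJB1, at 0.145 from 3 reads, exceeded 91.4%, and PTGES3, at 0.0591, exceeded 79.7%. None (0%) of the 30 nt windows that touch these 12 nt occur elsewhere on hg38. For its CDS, the denominator of the score, 59.6% do, and the effect on the score was not tested.

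PTGES3 held 15 and 2 reads in untreated cells and 22 and 14 with G418. RRTS was 0.0701 and 0.0272 untreated and 0.121 and 0.0948 with G418. The 4 values do not overlap, but the counting intervals do, since 0.0392 to 0.116 in untreated A meets 0.0518 to 0.159 in G418 B. For PTGES3 40% of the 30 nt windows that touch this stretch occur elsewhere on hg38, and for FKBP4 53.1%.

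DNAJB1 held 3 and 0 reads in untreated cells and 10 and 4 with G418. RRTS was 0.208 and 0 untreated and 0.671 and 0.326 with G418. With 18 nt and few reads each value is coarse: 1 read is worth 0.0692 in untreated A and 0.160 in untreated B, where 0 reads allow an RRTS of up to 0.480. The ratio of 3.56 has a 95% exact interval of 0.993 to 19.3.

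**Figure D2:**
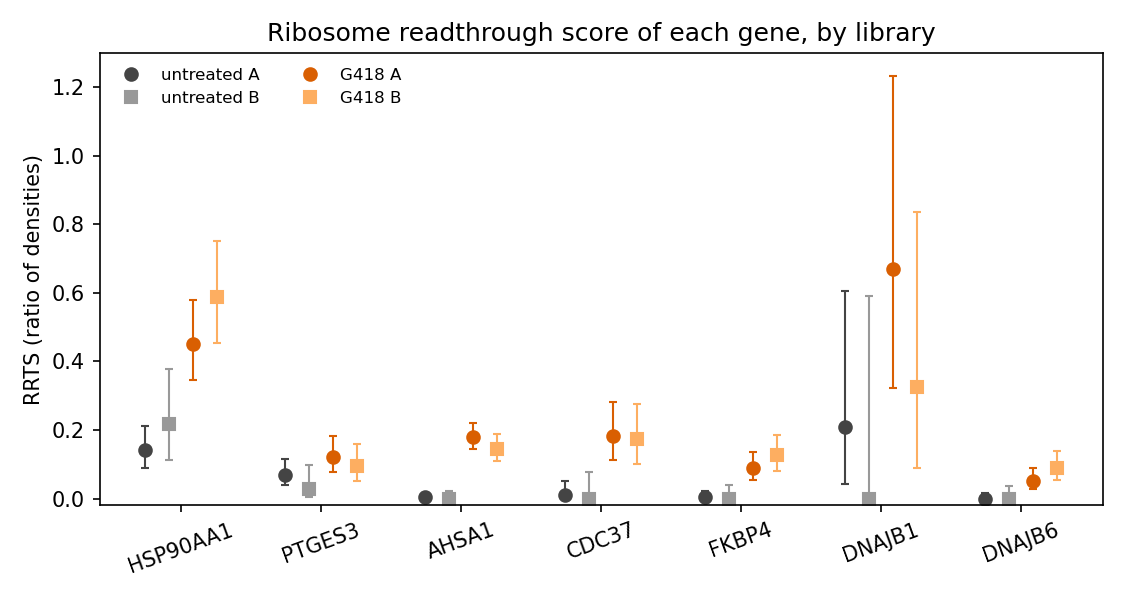
RRTS of the 7 genes in each library (untreated A and B in greys, G418 A and B in oranges), with exact Poisson intervals at 95%. AHSA1, CDC37, FKBP4 and DNAJB6 sit at or near 0 in untreated cells, HSP90AA1 starts at 0.140 and 0.217, and the intervals of DNAJB1 span most of the axis.

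edgeR's quasi-likelihood test on reads past the NTC, with CDS reads as offset, called 5 of 7 genes higher with G418 (adjusted p under 0.05). That is 71.4%, beside 82.6% over all transcripts tested. The minimum of 10 reads counts all 4 libraries, and AHSA1, CDC37, FKBP4, DNAJB6 and DNAJB1 reached it only through G418 reads. Over all transcripts the share was 92.4% with at least 20 reads and 96.2% with at least 50. These shares depend on the minimum and do not estimate how many genes respond. The log2 fold change was 5.59 for AHSA1 (SE 0.51, adjusted p = 2.9e-26), 4.89 for FKBP4 (SE 0.82, adjusted p = 1.6e-08), 4.55 for CDC37 (SE 0.89, adjusted p = 1.4e-06) and 1.67 for HSP90AA1 (SE 0.28, adjusted p = 1.4e-08), all by edgeR. DNAJB6 was called as well (adjusted p = 9.6e-07, edgeR), but with 0 untreated reads its fitted value of 6.85 (SE 1.32) depends on the prior count. DNAJB1 had 1.76 (SE 0.90, adjusted p = 0.0606) and PTGES3 0.89 (SE 0.46, adjusted p = 0.0628), and neither was called by edgeR.

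The median over the 7 genes was 4.55, or 3.0 with 3 untreated reads assumed for DNAJB6. Over all transcripts tested the median was 3.18, from fitted values in which no untreated reads were assumed. The like measure for the genes here is therefore 4.55. HSP90AA1 lay above 15.5% of the tested transcripts by fitted log2 fold change, PTGES3 above 6.15% and AHSA1 above 87.2%. Over the whole 3′UTR, edgeR called all 7 of the 7 genes higher, against 70.3% of 4086 transcripts, DNAJB1 with 3.95 (SE 0.58, adjusted p = 1.2e-10) and PTGES3 with 0.91 (SE 0.26, adjusted p = 0.00135). With at least 50 reads required, 3 of the 7 genes could be tested and edgeR called 2, against 96.2% of 653 transcripts.

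**Figure D3:**
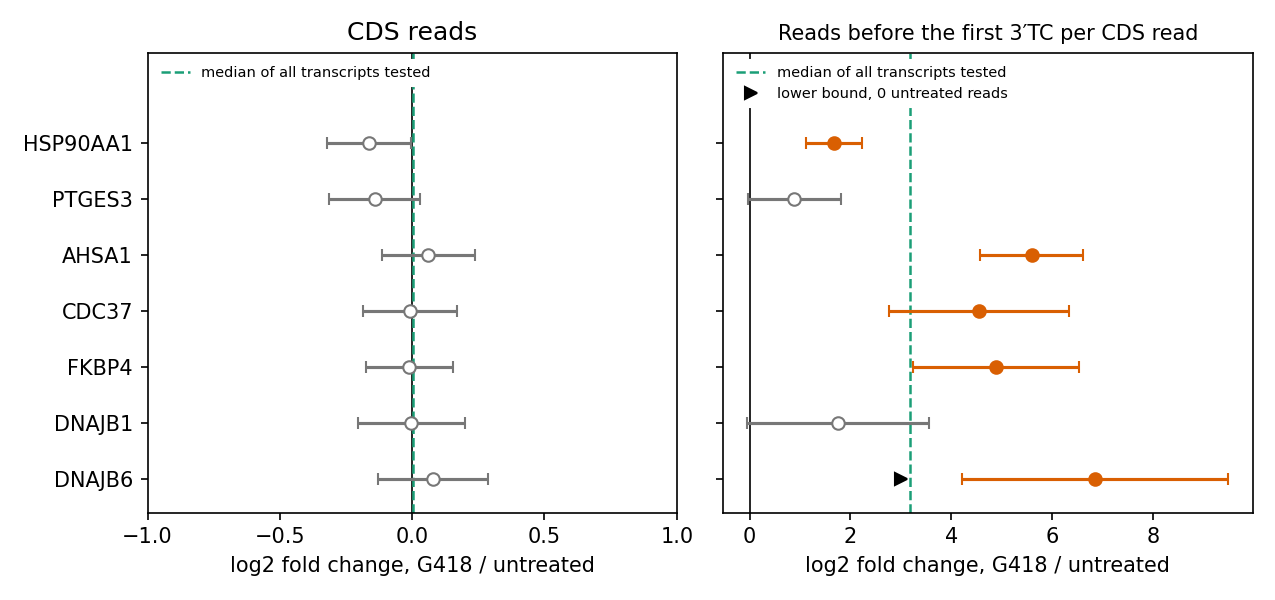
Fitted log2 fold changes of G418 over untreated (edgeR), with bars of 2 SE, for CDS reads (left) and for extension reads per CDS read (right). Filled orange points passed an adjusted p of 0.05, open grey points did not, and the dashed line is the median of all transcripts tested (0.00 and 3.18). The triangle, labelled as a lower bound, is DNAJB6 with 3 untreated reads assumed, which corresponds to 8.01-fold without counting error.

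The level of RRTS under G418 put these genes in an order. HSP90AA1 (0.520 ± 0.0965, SD, n = 2) and DNAJB1 (0.499 ± 0.243) came first, and their libraries overlap. CDC37 (0.178 ± 0.00746) and AHSA1 (0.163 ± 0.0242) followed, overlapping each other and no other gene. PTGES3 (0.108 ± 0.0188) and FKBP4 (0.108 ± 0.0265) overlap as well. DNAJB6 was the lowest at 0.0708 ± 0.0257, and its upper value of 0.0889 falls just short of the lower value of FKBP4, 0.0890.

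Against transcripts with the same 4 nt stop codon, the genes fell on both sides of the median. The 338 transcripts with UAAU had a median RRTS of 0.171 under G418, and HSP90AA1, at 0.512 with its libraries pooled, exceeded 92.0% of them. The 410 transcripts with UAGC had a median of 0.259, and the 2 genes with this stop codon lay apart: DNAJB1 at 0.515 exceeded 82.9% of them and FKBP4 at 0.106 exceeded 21.5%. Their counting intervals, 0.282 to 0.865 and 0.0777 to 0.142, do not meet. CDC37 carries UGAC, whose 664 transcripts had the highest of the medians seen here, 0.390, and at 0.178 it exceeded 22.3% of them.

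AHSA1 and PTGES3 lay close to the median of their stop codons. AHSA1 at 0.164 exceeded 50.6% of the 399 transcripts with UAGG (median 0.159), and PTGES3 at 0.109 exceeded 53.3% of the 458 with UAAG (median 0.101). DNAJB6 at 0.0688 exceeded 21.9% of the 401 with UAGA (median 0.174). For AHSA1, the 294 transcripts without any in-frame 3′TC offer another comparison, and their median was 0.137.

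Length was a second difference. The 942 transcripts with a counted stretch of at most 21 nt had a median RRTS of 0.239 under G418, with 24.6% of them at 0, and the 5567 longer ones a median of 0.204, with 9.95% at 0. Within the short ones HSP90AA1 exceeded 76.1%, DNAJB1 76.4% and PTGES3 32.1%. Within the longer ones CDC37 exceeded 44.2%, AHSA1 40.8%, FKBP4 27.0% and DNAJB6 18.3%. In untreated cells the short ones had a median of 0, with 66.9% at 0, and the longer ones a median of 0.00584, with 47.5% at 0. There HSP90AA1 exceeded 86.5% of the short ones, DNAJB1 84.6% and PTGES3 77.0%. The part that length plays in these scores was not tested.

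**Figure D4:**
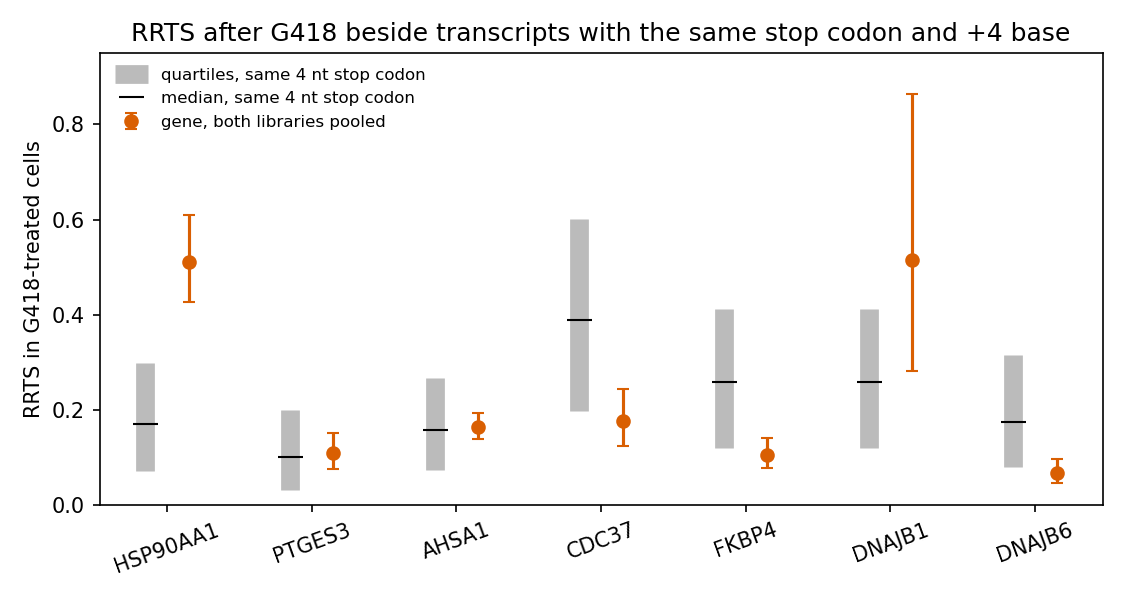
RRTS in G418-treated cells with both libraries pooled (orange points, exact Poisson intervals at 95%) beside the quartiles (grey bars) and median (black lines) of all transcripts with the same stop codon and +4 base. HSP90AA1 (0.512) and DNAJB1 (0.515) lie above the bars, FKBP4 (0.106), CDC37 (0.178) and DNAJB6 (0.0688) below them, and AHSA1 and PTGES3 near the median lines.

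Reads beyond the first in-frame 3′TC separated the genes further. HSP90AA1 held 154 and 53 such reads in untreated cells and 335 and 252 with G418. These were the most of the group in both conditions. DNAJB1 held 0 and 0 untreated and 29 and 22 with G418, and CDC37 5 and 1 untreated and 21 and 17 with G418. For both, as for HSP90AA1, PTGES3 and FKBP4, the reads of the conditions do not overlap. PTGES3 held 21 and 12 untreated and 38 and 34 with G418. FKBP4 held 3 and 1 untreated and 11 and 9 with G418, and DNAJB6 1 and 0 untreated and 3 and 1 with G418.

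Per nucleotide and relative to the CDS, this density under G418 was 0.0312 for CDC37, 0.0299 for HSP90AA1 and 0.0295 for DNAJB1, each above 84.6% to 85.7% of 5558 transcripts, whose median was 0.00752. It was 0.00417 for PTGES3, 0.00311 for DNAJB6 and 0.00187 for FKBP4, below that median. All 6 genes fell from their RRTS to these values, HSP90AA1 from 0.512 and DNAJB6 from 0.0688. Untreated, the density past the 3′TC was 0.0118 for HSP90AA1, 0.00644 for CDC37 and 0 for DNAJB1. These values exceeded 88.5%, 78.0% and 0% of the 5558 transcripts. In the 3′UTR of HSP90AA1 36.1% of 30 nt windows occur elsewhere on hg38, in that of PTGES3 49.4%, in that of DNAJB1 19.4% and in that of DNAJB6 0%.

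RPFs on the 5′UTR, upstream of the start codon, were compared per CDS read. PTGES3, AHSA1 and DNAJB6 carried the most, HSP90AA1 few, and CDC37 none. This order makes no allowance for length. The counted 5′UTR is 279 nt for PTGES3, 200 nt for HSP90AA1, 164 nt for FKBP4 and 161 nt for DNAJB6. It is 91 nt for AHSA1, 57 nt for CDC37 and 42 nt for DNAJB1. The counted CDS runs from 450 nt for PTGES3 to 2166 nt for HSP90AA1. CDC37 had 0 5′UTR reads in all 4 libraries, which allows up to 0.445 per 1000 of its 6745 CDS reads, and DNAJB1 had 1 read in untreated B and 0 in the others. Neither could be tested.

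HSP90AA1 had 261 and 126 5′UTR reads in untreated A and B and 140 and 105 in G418 A and B. Per 1000 CDS reads this was 8.82 and 12.6 untreated and 5.65 and 5.34 with G418, with no overlap between conditions. edgeR called HSP90AA1 lower, with a log2 fold change of -0.93 (SE 0.20, adjusted p = 0.0372), the only one of 5 genes tested, where 1.67% of 3596 transcripts were called lower. The median over all transcripts tested was -0.21. Without G418 A the value was -0.98 (adjusted p = 0.499) and without G418 B -0.90 (adjusted p = 0.375), and edgeR called 0 of the genes tested in either case, where it called 0.213% and 0.183% of all transcripts lower. The transcript counted for HSP90AA1 has a counted 5′UTR of 200 nt, and its later version in GENCODE version 44 has a full 5′UTR of 59 nt. Counted lengths run short of full ones, as in DNAJB1 with 42 of 48 nt. Which of the 2 leaders of HSP90AA1 the cells use was not tested.

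PTGES3 had 363 and 208 5′UTR reads untreated and 329 and 280 with G418, or 79.2 and 132 per 1000 CDS reads untreated and 84.7 and 88.5 with G418. AHSA1 had 159 and 88 untreated and 142 and 127 with G418, or 72.0 and 108 per 1000 CDS reads untreated and 62.9 and 70.8 with G418. In both genes untreated B stands well above the other 3 libraries. DNAJB6 had 70 and 23 untreated and 57 and 54 with G418, or 107 and 88.5 per 1000 untreated and 82.1 and 96.9 with G418. FKBP4 had 51 and 52 untreated and 72 and 69 with G418, or 13.2 and 33.9 per 1000 untreated and 19.04 and 21.8 with G418.

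For PTGES3, DNAJB6 and FKBP4 the conditions overlap, and for AHSA1 the G418 values lie just under untreated A. Untreated B was the highest library for 4 of the 5 genes, HSP90AA1, PTGES3, AHSA1 and FKBP4, and it also had the largest 5′UTR share of all RPFs, 5.27% against 4.44% to 4.61% in the other libraries. Without that library HSP90AA1 had -0.68 (adjusted p = 0.00329, edgeR, where 4.59% of 3421 transcripts were called lower), PTGES3 had 0.13 and FKBP4 0.63, the last 2 not called. Without untreated A, where 11.6% of 3202 transcripts were called lower, edgeR called 3 of the 5 genes, AHSA1 (-0.69, adjusted p = 0.0201) and PTGES3 (-0.61, adjusted p = 1.2e-04) beside HSP90AA1 (-1.19, adjusted p = 2.7e-07).

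**Figure D5:**
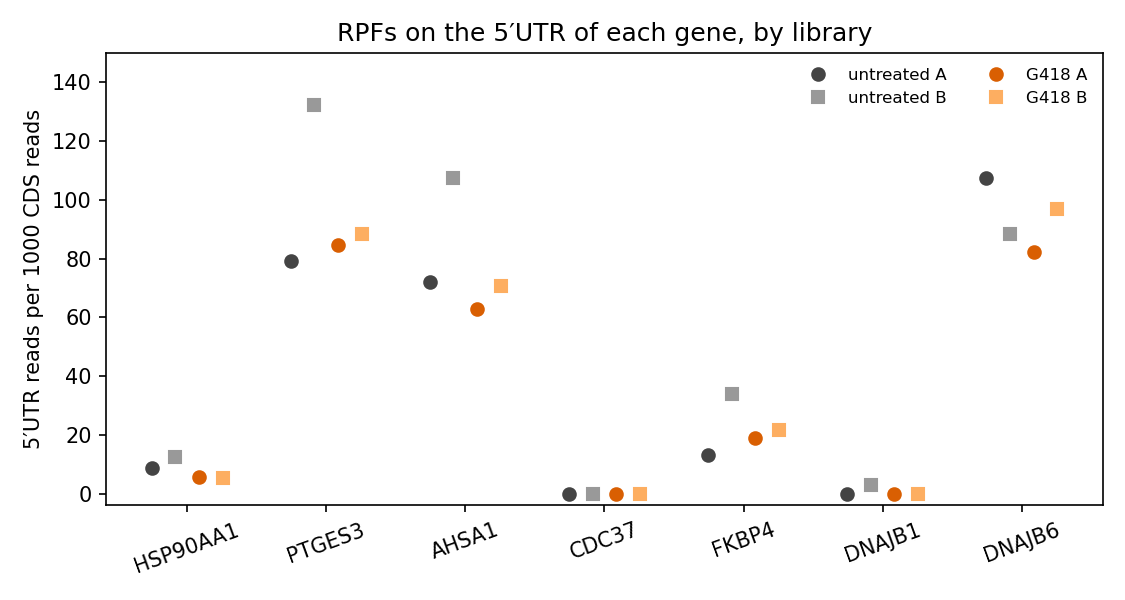
5′UTR reads per 1000 CDS reads of the 7 genes, 1 point per library (untreated A and B in greys, G418 A and B in oranges). HSP90AA1 lies at 8.82 and 12.6 in untreated and 5.65 and 5.34 in G418-treated cells, untreated B stands highest for PTGES3 at 132, and CDC37 is at 0 throughout.

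Other genes of the HSP90 and J protein system were read from the same test of CDS reads. Both other HSP90 paralogs were listed and neither was called in the main test. HSP90B1 (GRP94, of the endoplasmic reticulum) had a log2 fold change of 0.16 (adjusted p = 0.243, edgeR) and TRAP1 (of mitochondria) -0.13 (adjusted p = 0.356, edgeR). With library totals edgeR called 1 of the 2, where 11.9% of all transcripts were called. Leaving out untreated A changed the calls as well. Of 24 further HSP90 co-chaperones 18 were tested, and edgeR called 1 higher and 2 lower, with a median of -0.02. STUB1 (CHIP), a ubiquitin ligase that marks chaperone clients for degradation, rose from 59.2 and 62.6 RPKM to 96.3 and 88.9 RPKM, a log2 fold change of 0.55 (SE 0.11, adjusted p = 0.00141, edgeR). RUVBL2, an AAA+ ATPase of the R2TP complex, fell by 0.36 on the log2 scale (adjusted p = 0.0080, edgeR), and UNC45A, a chaperone of myosin, fell by 0.33 (adjusted p = 0.0361, edgeR).

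Of 11 other class A and B J proteins 8 were tested and edgeR called 1, with a median of -0.05. DNAJB2, which binds ubiquitinated clients, rose from 5.73 and 1.93 RPKM to 12.5 and 10.6 RPKM, a log2 fold change of 1.29 (SE 0.27, adjusted p = 0.00185, edgeR), from 41 and 6 CDS reads untreated. Of 30 class C J proteins, which share the J domain and little else, 20 were tested and edgeR called 2 higher and 0 lower, with a median of 0.02. DNAJC24, a factor of diphthamide synthesis, rose by 0.84 (adjusted p = 0.0325, edgeR), and DNAJC3 (p58IPK), which restrains eIF2α kinases, by 0.39 (adjusted p = 0.0318, edgeR). The counts called are 16.7%, 12.5% and 10.0% of those tested in these 3 lists, beside the 8.52% over all transcripts. Without G418 A, and likewise without G418 B, edgeR called 0 of the co-chaperones and 0 of the class C J proteins, with 0.916% and 0.856% of all transcripts called. It called 7 co-chaperones without untreated A and 8 without untreated B, where 16.7% and 24.4% of all transcripts were called. DESeq2 called 2 of the co-chaperones and 0 of the J proteins in either list, where it called 3.90% of all transcripts. With library totals edgeR called 4 class C J proteins and 11.9% of all transcripts.

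In readthrough, edgeR called 2 of 2 paralogs tested higher with G418 and 10 of 10 other co-chaperones. It called 2 of 2 other class A and B J proteins and 6 of 8 class C J proteins. The share over all transcripts was 82.6%, and 5 of 7 genes described above were called. Transcripts entered this test by reads summed over all libraries, most of which are G418 reads.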

How the data were processed

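Ribosome profiling libraries of HEK293T cells, 2 untreated and 2 with G418, were analysed. The members and gene lists were chosen with earlier results of these data known. The authors collapsed reads by sequence and molecular identifier, removed reads of noncoding RNA, aligned the rest to hg38 with STAR guided by GENCODE version 30, kept 1 alignment of each read that maps to several places, and used 1 transcript per gene. The deposited counts are their full-length RPFs per region, not normalized. RPM values, also from the authors, are these reads scaled to the library's mapped reads, and the deposited RPKM densities divide RPM by region length after leaving out 18 nt at the start and 15 nt at the end of the CDS and 6 nt after the NTC. RRTS is a ratio that the authors computed from these densities, and it was recomputed here from reads. A density that the authors deposited for the 5′UTR was classed as a score and left aside.

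Whole reads were recovered from the RPM steps, with 100% of values whole within 0.01 of a read, and used for readthrough. Deposited CDS counts lay 0 or 1 read per transcript below the recovered ones, more often with G418. Their totals were 5303469 against 5312495 in G418 A and 4452045 against 4455448 in G418 B. In untreated A they were 5775605 against 5775720, and in untreated B 2302174 against 2302184. With recovered reads edgeR called 8.72% of 8499 transcripts in CDS reads and 0 of the 7 genes. CDS counts were tested for 8494 of the 8568 transcripts in all 4 tables with edgeR's quasi-likelihood test (TMM, filterByExpr, Benjamini-Hochberg). Readthrough used extension reads, those up to the first 3′TC in frame (at least 10 over the libraries, 128 mRNA reads in each condition), and 5′UTR reads used at least 20 reads and 128 CDS reads in each condition, both with the log of CDS reads plus 0.5 as offset. Named genes outside the 10 are up to 4 rises and 4 falls per list among called genes with the same direction in both same-letter pairs, and both other HSP90 paralogs. A further gene that meets this rule is not reported here. Windows of 30 nt were sought on 24 chromosomes of hg38, on both strands. Alternatives were DESeq2, other minima, library totals, no filter on low counts, an interaction model, recovered reads, a replicate block, the whole 3′UTR and leaving out each library. On simulated data with 200 changed transcripts, edgeR recovered 100% of 2-fold changes in CDS reads among 8476 transcripts. It recovered 99.5% of 4-fold changes in readthrough among 2827 and 63.5% of 2-fold changes in 5′UTR reads among 3596. False calls were 5.66%, 3.86% and 3.05% of the calls. The changed transcripts were drawn above higher read minima than those of the tests, and each simulation used a common dispersion. DNAJB1, DNAJB6 and CDC37 have fewer extension reads than was required there, so the 99.5% does not describe them. edgeR 4.0.16 and DESeq2 1.42.0 ran in R 4.3.3, and pandas 2.3.3, numpy 2.4.6, scipy 1.17.1 and matplotlib 3.10.9 in Python 3.11.15.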

Additional observations from a re-analysis of the deposited data

How the results depend on the processing

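Direction and call held for the readthrough of HSP90AA1, AHSA1, CDC37, FKBP4 and DNAJB6 under every alternative that could test them. Leaving out each library in turn gave 0 to 2 of the 7 genes called in CDS reads (2 without untreated B), 5 to 7 in readthrough and 0 to 3 in 5′UTR reads per CDS read. Over all transcripts the same step gave 73 to 2082 calls in CDS reads against 724, 1392 to 2251 in readthrough against 2336 and 6 to 372 lower in 5′UTR reads against 60. With fewer samples the lone library of a condition is assumed to vary like the other condition. DESeq2 called 250 transcripts in CDS reads, 1408 in readthrough and 39 in 5′UTR reads. Minima of 20 and 50 reads, which leave fewer transcripts to test, gave 1536 and 628 readthrough calls, and 50 reads left 2 called genes of 3 tested here.

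The replicate letters are shared between conditions. Deviations of the A libraries from their condition means correlated at r = 0.136 over 8494 transcripts. With 2 pairs this cannot tell whether cultures of the same letter were handled together. With a replicate block edgeR called 241 transcripts lower in 5′UTR reads per CDS read, 1070 in CDS reads and 1852 higher in readthrough, and the call of none of the 7 genes changed.

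Some values that were not called in the main test changed sign. In CDS reads, library totals gave 0.10 for DNAJB1, 0.095 for CDC37 and 0.093 for FKBP4, and leaving out single libraries gave -0.066 to 0.043 for DNAJB1 and -0.076 to 0.046 for CDC37. In 5′UTR reads, leaving out single libraries gave -0.27 to 0.0099 for DNAJB6, -0.61 to 0.13 for PTGES3 and -0.74 to 0.63 for FKBP4. DNAJB1 passed the readthrough threshold in the interaction model (1.77, adjusted p = 0.0366) and without untreated A (5.55, adjusted p = 0.0398, with 0 untreated reads left), and PTGES3 without untreated A (1.97, adjusted p = 0.0385), all by edgeR. The causes were not tested.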

Other observations

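The kinases, receptors and transcription factors that are textbook clients of HSP90 were read from the same fit of CDS reads. Of 25 genes on that list 19 were tested, and edgeR called 3 higher and 1 lower, 21.1% of those tested beside 8.52% of all transcripts, with a median log2 fold change of 0.02. AKT1, a kinase of growth factor signalling, rose from 7.15 and 5.65 RPKM in untreated cells to 15.1 and 12.9 RPKM with G418, a log2 fold change of 1.01 (SE 0.17, adjusted p = 2.4e-04, edgeR). CDK4, the cyclin D kinase that CDC37 delivers to HSP90, rose from 137 and 131 RPKM to 229 and 212 RPKM, a log2 fold change of 0.65 (SE 0.09, adjusted p = 3.8e-05, edgeR). WEE1, the kinase that holds cells before mitosis, fell from 34.3 and 31.9 RPKM to 24.8 and 28.8 RPKM (log2 fold change -0.38, SE 0.12, adjusted p = 0.0390, edgeR). For these 3 genes the values of the 2 conditions do not overlap. DESeq2 called 2 genes of this list, where it called 3.90% of all transcripts. The number called by edgeR changed with each library left out.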
